A study of Mus musculus with 8 samples.

Results

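Small nucleolar RNAs (snoRNAs) guide the chemical modification of ribosomal RNA, and in mammals most are cut from the introns of longer RNAs, called host RNAs. The genes described here are 9 such hosts, Gas5 (growth arrest specific) and 8 small nucleolar RNA host genes (Snhg1, Snhg3, Snhg4, Snhg5, Snhg6, Snhg8, Snhg11 and Snhg12). They were taken by symbol from the 16913 genes of an RNA-seq table, and all 9 were listed. RNA came from the lateral ganglionic eminence, the embryonic zone that gives rise to striatal projection neurons, at embryonic day 14.5, in mice with C57BL/6J and CD1 in a mixed background. All animals carried Dlx5/6-Cre, a driver active in Dlx-expressing cells of the ventral forebrain. The 4 controls were littermates with 1 floxed Meis2 allele (Dlx5/6-Cre;Meis2F/+), and the 4 Meis2-CKO samples had 2 (Dlx5/6-Cre;Meis2F/F). Cre is therefore present in both groups, the control is not a wild type, and cells outside the Dlx5/6 lineage keep their Meis2 alleles. Each gene has 1 mean expression signal per genotype, a log2 fold change of knockout (Meis2-CKO) over control, and a p-value, all computed by the authors. The table names no unit and gives no spread for these means, and the sequencing depth is unknown. In bulk tissue, fewer cells of a type and less RNA per cell cannot be told apart.

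The host RNA is spliced, the introns release their snoRNAs, and what remains is an RNA with little or no coding potential that is often removed quickly by nonsense-mediated decay. Box C/D snoRNAs direct 2′-O-methylation with the methyltransferase fibrillarin, and box H/ACA snoRNAs direct pseudouridine formation with dyskerin. Many host RNAs begin with a terminal oligopyrimidine tract, a C followed by further C or T bases, as the messenger RNAs of ribosomal proteins do, and their fate follows growth signals through mTOR. Gas5 is best known for accumulating when cells stop growing.

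The sequence around the start of each host is shown because that tract is the best known feature of the family. Windows of 20 bases before and 30 bases after the RefSeq start (GRCm38.p6) were read for 7 of the 9 genes, with 2 starts for Gas5. Capitals mark a C followed by at least 4 C or T bases that begins within 10 bases of the start. Where several C bases qualified, the capitals begin at the C nearest the start.
Gas5, first start, chr1:161034581-161034630, plus strand: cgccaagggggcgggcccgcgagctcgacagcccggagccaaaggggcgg
Gas5, other start, chr1:161035146-161035195, plus strand: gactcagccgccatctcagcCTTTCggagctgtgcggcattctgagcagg
Snhg1, chr19:8723467-8723516, plus strand: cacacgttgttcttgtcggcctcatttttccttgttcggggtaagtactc
Snhg3, chr4:132353657-132353706, minus strand: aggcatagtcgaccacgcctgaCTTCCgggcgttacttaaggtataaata
Snhg5, chr9:88522868-88522917, minus strand: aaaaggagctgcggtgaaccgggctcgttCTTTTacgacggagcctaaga
Snhg8, chr3:123508307-123508356, minus strand: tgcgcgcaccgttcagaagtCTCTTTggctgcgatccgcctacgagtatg
Snhg11, chr2:158375693-158375742, plus strand: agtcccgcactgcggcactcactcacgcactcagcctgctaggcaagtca
Snhg12, chr4:132308658-132308707, plus strand: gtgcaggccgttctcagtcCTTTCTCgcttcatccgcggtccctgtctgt

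A tract by this rule stood in 5 of the 8 windows (62.5%), against 29.7% of 32851 promoters in the same collection, searched on the transcribed strand. Gas5 is counted with both of its starts, and the rule was set after values of these data were seen. The matches of Snhg3 and Snhg5 lay further in, at bases 3 and 10 counted from the start. In Gas5 and Snhg8 the marked C was the annotated first base. The marked tract of Snhg12, the longest of these as marked at 7 bases, began 1 base earlier. In Gas5 and Snhg12 a further C stands directly before the capitals, so the tract can also be read from 1 base before the mark. The window of Snhg1 held none by this rule, and neither did that of Snhg11. A match describes letters only.

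The snoRNA genes inside these hosts were taken from GENCODE M21 on GRCm38 as those lying within the span of the host on its strand. Snhg4 has an Ensembl identifier with no match there and was placed by its RefSeq span, without a strand. The 9 spans held 33 annotated snoRNA genes, 10 in Gas5, 8 in Snhg1, 5 in Snhg12, 2 each in Snhg3, Snhg4, Snhg5 and Snhg11, and 1 each in Snhg6 and Snhg8. A pair of near-identical entries for Snord80 and another for Snora16a are each counted as 2 genes. The letters TGATGA within the first 20 bases together with CTGA within the last 16, the hallmarks of box C and box D, were found in 17 of the 33 (51.5%), against 20.3% of 1507 annotated snoRNA genes. These 17 were 60 to 87 bases long, and 8 of them lay in Gas5 and 5 in Snhg1. The letters ACA exactly 3 bases before the end, the hallmark of the H/ACA class, were found in 7 (21.2%, against 18.3% of all), 3 of them in Snhg12 and 2 in Snhg3. One of the 7, an entry of Gas5 named Mir5117, also held both other boxes. By these rules 10 of the 33 matched neither class.

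**Figure D1:**
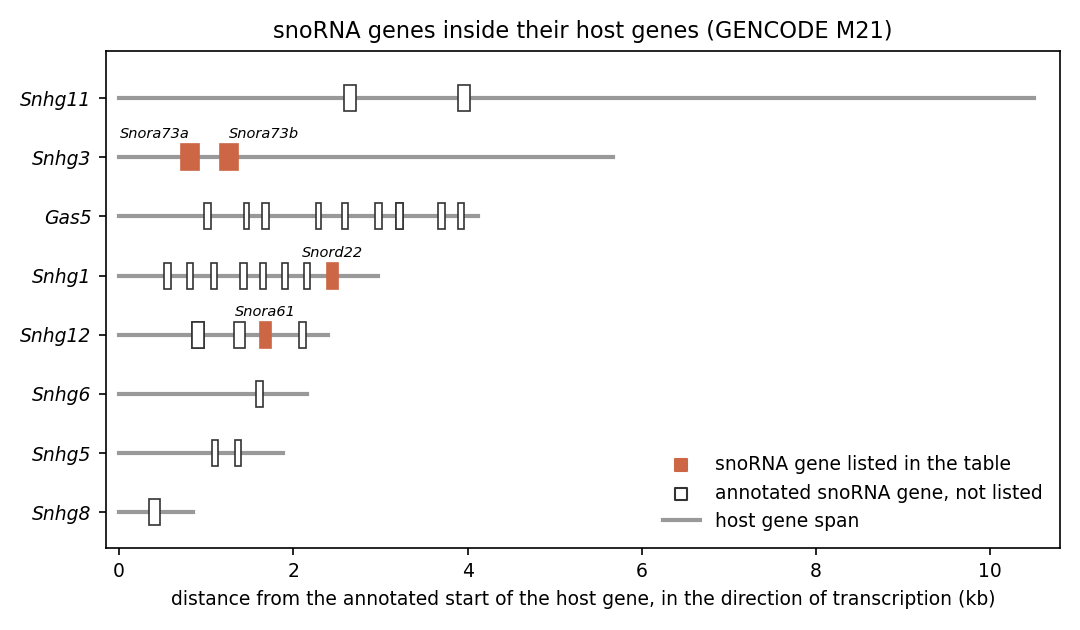
Map of 8 host genes placed by GENCODE M21, with distance from the annotated start in kb along the horizontal axis and 1 host per line; boxes are annotated snoRNA genes, filled where the gene is listed in the expression table. Of the boxes shown, only Snord22, Snora61, Snora73a and Snora73b are listed, and the 10 entries of Gas5 are all unlisted.

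None of the 9 host genes passed an adjusted p of 0.05 in the authors' deposited table, in either direction, where 0.780% of all 16913 genes passed, 0.237% with the higher mean in Meis2-CKO and 0.544% with the lower. An unadjusted p under 0.05 was reached by 2 of the 9 (22.2%), Snhg6 and Snhg11, both with the higher mean in Meis2-CKO, against 2.17% of all genes in either direction and 0.828% with a higher mean. The members were chosen with earlier results of these data known, so the 22.2% is not an independent count. The 7 members other than Snhg6 and Snhg11 had log2 fold changes between -0.11 and 0.07 and p-values from 0.404 to 0.917. The log2 fold change was above 0 for 6 members and below 0 for 3, with a median of 0.02, beside 53.3% above 0 and a median of 0.01 over all genes; that of Gas5 turns below 0 when computed from the means or centred. A gene that did not pass is not shown to be unchanged.

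**Figure D2:**
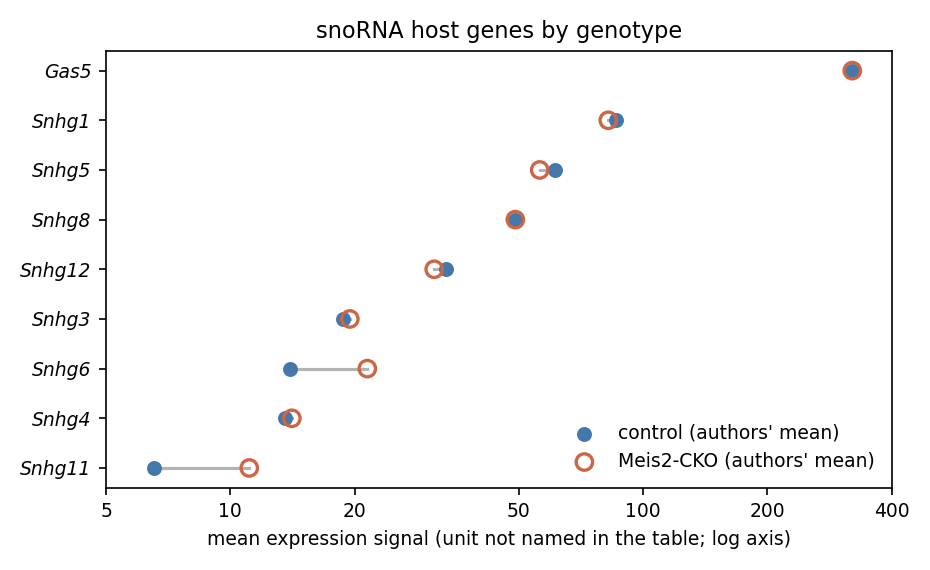
Authors' mean expression signal of the 9 host genes on a log axis, filled points for control and open rings for Meis2-CKO, 1 gene per line in order of the control mean; no error bar is drawn because the table gives none for these means. The 2 points of a gene nearly coincide except for Snhg6 (13.9 and 21.5) and Snhg11 (6.52 and 11.1).

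Gas5 had the highest level of the family. Gas5 (ENSMUSG00000053332, chromosome 1, 161034422 to 161038539) averaged 321.2 in controls and 321.0 in knockouts. The authors' deposited table gave it a log2 fold change of 0.01 (p = 0.917). The 2 means differed by 0.056%, the smallest gap among the 9 genes. Only 4 of 1538 listed long noncoding genes had a higher control mean. Gas5 alone made up 53.2% of the summed control signal of the 9 genes and 53.0% of the summed Meis2-CKO signal. None of its 10 snoRNA genes was listed, so the snoRNAs of the most abundant host are not analysed here. Snord47 is shown as an example of the box C/D class that fills Gas5, and Snord87 because it is the single snoRNA of Snhg6 (GENCODE M21, GRCm38, box letters in capitals).
Snord47, chr1:161038082-161038158, plus strand: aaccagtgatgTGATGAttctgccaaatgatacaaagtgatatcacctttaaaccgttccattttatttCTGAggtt
Snord87, chr1:9942463-9942549, minus strand: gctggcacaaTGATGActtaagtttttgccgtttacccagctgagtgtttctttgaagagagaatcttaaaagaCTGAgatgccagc
The protein-coding gene Zbtb37 runs the other way and overlaps Gas5 by 428 bases. Zbtb37 averaged 4.25 in controls and 3.69 in knockouts (p = 0.706 in the authors' deposited table). Whether the counting used strand is not known, so reads in the overlap cannot be assigned to either gene.

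Snhg1, the host of U22 (Snord22), had the next highest level. Snhg1 (ENSMUSG00000108414, chromosome 19, 8723475 to 8726443) averaged 86.0 in controls and 82.3 in knockouts (log2 fold change -0.05 with p = 0.671 in the authors' deposited table). Its neighbour Slc3a2, a chain of an amino acid transporter, starts 105 bases away on the other strand and averaged 42.2 and 45.7 (p = 0.411 in the authors' deposited table).

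Snhg5, Snhg8 and Snhg12 lay in the middle of the range. Snhg5 (ENSMUSG00000097195, chromosome 9, 88521050 to 88522929), which holds Snord50a and Snord50b, averaged 61.2 in controls and 56.2 in knockouts. A log2 fold change of -0.11 in the authors' deposited table (p = 0.404) made it the most negative of the 9. These 2 snoRNAs share 71 of 72 bases, and neither is listed. Snhg8 (ENSMUSG00000104960, chromosome 3, 123507552 to 123508404), the host of Snora24, averaged 48.9 and 49.0 (log2 fold change 0.02 with p = 0.915 in the authors' deposited table). Snhg12 (ENSMUSG00000086290, chromosome 4, 132308623 to 132311024), whose span carries both classes of snoRNA, averaged 33.4 and 31.2 (log2 fold change -0.09 with p = 0.632 in the authors' deposited table). Across all 7 members without an unadjusted p under 0.05, the knockout mean differed from the control mean by -8.31% (Snhg5) to 4.14% (Snhg4).

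Snhg3 and Snhg4 host the longest snoRNAs of the set, known as H/ACA RNAs, and were lower in level. Neither entry of Snhg4 held the ACA letters by the rule used here. Snhg3 (ENSMUSG00000085241, chromosome 4, 132348014 to 132353686), the host of U17 (Snora73a and Snora73b, known for a role in ribosomal RNA processing), averaged 18.8 in controls and 19.5 in knockouts (log2 fold change 0.06 with p = 0.783 in the authors' deposited table). It overlaps Rcc1, a nucleotide exchange factor of Ran, by 5592 bases on the same strand, and Rcc1 averaged 37.4 and 41.6 (p = 0.305 in the authors' deposited table). Both Snora73 copies lie within the span of Rcc1 as well. The lincRNA Gm17300 overlaps Snhg3 by 1611 bases on the other strand, across both copies. It averaged 2.305 and 2.32 (p = 0.974 in the authors' deposited table). How the counting shared reads between these genes is not given, so the values of Snhg3 and Rcc1 are uncertain. Snhg4 (ENSMUSG00000097769, chromosome 18, 35553410 to 35558316 by RefSeq), the host of Snora74a, averaged 13.5 and 14.1 (log2 fold change 0.07 with p = 0.796 in the authors' deposited table).

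The pair with an unadjusted p under 0.05 lay at the lower end of the levels. Snhg6 (ENSMUSG00000098234, chromosome 1, 9941959 to 9944118), the host of Snord87, averaged 13.9 in controls and 21.5 in knockouts. The authors' deposited table gave a log2 fold change of 0.63, or 1.55-fold higher, with p = 0.00962 and an adjusted p of 0.764. It moved from the seventh place among the 9 genes in control to the sixth in Meis2-CKO, ahead of Snhg3. Snord87, its single snoRNA, is not listed.

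Snhg11 (ENSMUSG00000044349, chromosome 2, 158375638 to 158386145) is a host RNA often detected in neurons. Its means were 6.52 for controls and 11.1 for knockouts, a log2 fold change of 0.77 (1.71-fold higher, p = 0.0258 and adjusted p = 0.999987 in the authors' deposited table). It was the lowest of the 9 genes in both genotypes. Over all genes, 5.74% had a log2 fold change larger in size than Snhg11, and 7.49% one larger than Snhg6. The table and GENCODE M21 class Snhg11 as protein-coding, which goes against its name as a noncoding host, whereas the other 8 are classed as lincRNA or processed transcript in the table. Snhg17, another host gene 14057 bases away on chromosome 2, averaged 37.0 and 44.4 (log2 fold change 0.27 with p = 0.0887 in the authors' deposited table).

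From highest to lowest control mean the order was Gas5, Snhg1, Snhg5, Snhg8, Snhg12, Snhg3, Snhg6, Snhg4 and Snhg11, over a range of 49.3-fold. The only change of order in Meis2-CKO was that of Snhg6 and Snhg3. Without a spread between embryos it cannot be said which neighbours in this order differ. The unit is not named, so the order holds on the deposited scale only.

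Of the 33 snoRNA genes inside the hosts, 5 were listed, and 2 of these passed an adjusted p of 0.05, 1 lower and 1 higher in Meis2-CKO. The listed ones were 126 to 205 bases long. The 28 unlisted ones had a median length of 76.5 bases, and 7 of them were 126 bases or longer. Counted over the deposited genes of the snoRNA class, 36 of 70 passed, 15 higher and 21 lower in Meis2-CKO, against 0.780% of all genes. Calls in both directions were thus common in the class and are not particular to these hosts.

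The listed snoRNAs with a printed sequence are shown first (GENCODE M21, GRCm38). In Snord22 the capitals mark box D, and in Snora61 the ACA box. In the Snora73 pair they mark the 7 of 205 bases at which the copies differ, which bear on how reads could be told apart.
Snord22, chr19:8725866-8725991, plus strand: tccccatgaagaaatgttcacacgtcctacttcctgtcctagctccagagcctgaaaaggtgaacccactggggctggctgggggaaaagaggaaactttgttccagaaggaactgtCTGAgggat
Snora61, chr4:132310240-132310369, plus strand: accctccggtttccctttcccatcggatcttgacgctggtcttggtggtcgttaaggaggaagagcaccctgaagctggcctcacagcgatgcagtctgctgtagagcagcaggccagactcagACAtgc
Snora73a, chr4:132352775-132352979, minus strand: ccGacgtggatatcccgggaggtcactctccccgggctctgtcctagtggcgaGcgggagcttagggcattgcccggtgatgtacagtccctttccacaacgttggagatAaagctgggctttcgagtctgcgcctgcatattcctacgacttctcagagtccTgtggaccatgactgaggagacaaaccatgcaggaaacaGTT
Snora73b, chr4:132352322-132352526, minus strand: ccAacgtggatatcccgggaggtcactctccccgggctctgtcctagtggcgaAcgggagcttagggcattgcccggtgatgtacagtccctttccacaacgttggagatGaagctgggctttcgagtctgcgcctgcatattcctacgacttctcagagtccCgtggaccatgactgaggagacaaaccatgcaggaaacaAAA

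Snord22 (U22), a box C/D RNA needed for the processing of 18S ribosomal RNA rather than for methylation, passed with the lower mean in Meis2-CKO. It averaged 24.4 in controls and was listed at 0 for knockouts (adjusted p = 1.28e-27 in the authors' deposited table). Its host Snhg1 averaged 86.0 and 82.3. It is the longest of the 8 snoRNA genes in Snhg1, whose shortest has 65 bases, and the only one of them that is listed. The letters TGATGA are not among its first 20 bases.

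The snoRNA-class entry named Mir1949, of 141 bases inside the RefSeq span of Snhg4, passed with the higher mean in Meis2-CKO. It was listed at 0 for controls and averaged 2.53 in knockouts (adjusted p = 0.0240 in the authors' deposited table). The stricter Benjamini-Yekutieli adjustment, recomputed from the p-values of the authors' deposited table, ended this call (adjusted p = 0.247). Snhg4 averaged 13.5 and 14.1, and Snora74a, the snoRNA for which it is known, is not listed.

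The other 3 listed snoRNAs did not pass. Snora61 inside Snhg12 averaged 7.40 in controls and 14.4 in knockouts (log2 fold change 0.96 with p = 0.00226 and adjusted p = 0.249 in the authors' deposited table), while the means of Snhg12 were 33.4 and 31.2. Snora73a inside Snhg3 averaged 4.89 and 2.28 (log2 fold change -1.05 with p = 0.0507 in the authors' deposited table), and for Snora73b the means were 10.04 and 8.06 (log2 fold change -0.30 with p = 0.373). The copies share 198 of 205 bases, so the split of reads between them is uncertain.

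**Figure D3:**
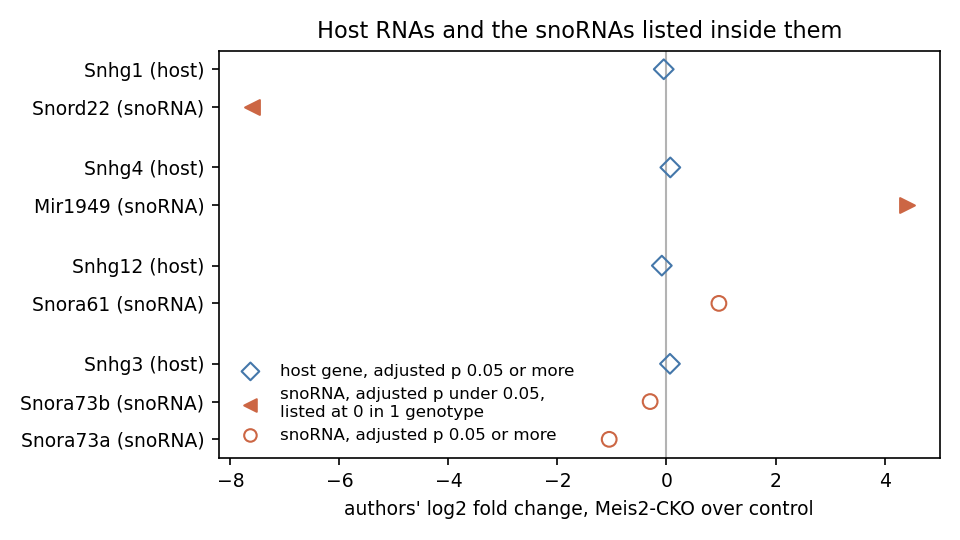
Authors' log2 fold change (Meis2-CKO over control) of the 4 hosts with a listed snoRNA (diamonds) and of the snoRNAs inside them (filled triangles past an adjusted p of 0.05, open circles not). The hosts sit between -0.09 and 0.07; the triangles are Snord22 and Mir1949, each listed at 0 in 1 genotype, so their position shows a direction and not a size.

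Whether the snoRNA and its host are separate in these counts depends on the annotation. Of 31 snoRNA genes inside a host with known exons, 27 lay wholly and 1 in part within annotated exons of the host, and 3 did not overlap them. Gas5 has 25 annotated transcripts, 20 of them classed as retained introns, and Snhg1 has 18, of which 14 are. The value of such a host therefore may include reads from unspliced RNA or from the snoRNA itself. Snord22 lies wholly within annotated exons of Snhg1, and the share of reads that this concerns was not tested.

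The same side-by-side reading was made for every listed snoRNA placed by GENCODE. In all, 61 listed snoRNAs lay inside a listed gene on the same strand, in 50 host genes, 3 of which were Snhg1, Snhg3 and Snhg12. Of the 61 snoRNAs, 29 passed an adjusted p of 0.05 in the authors' deposited table, against 0.780% of all genes. Of the 29, 26 were listed at 0 in 1 genotype. Among all 61, 32 were listed at 0 in 1 genotype, against 304 of all 16913 genes with a 0 in either genotype. None of the 50 hosts passed, and none had an unadjusted p under 0.05. Over all genes these shares were 0.780% and 2.17%, so none in 50 is near them. The log2 fold changes of the hosts ran from -0.17 to 0.27 with a median of 0.01. The p-values of the snoRNAs and of the hosts were not compared with each other by a test.

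**Figure D4:**
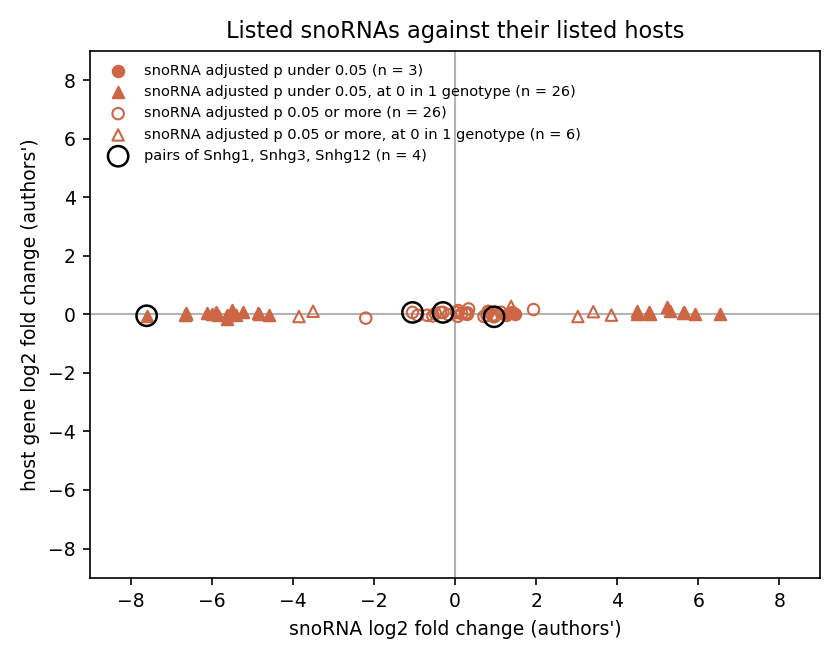
Authors' log2 fold change of 61 listed snoRNAs (horizontal) and of the listed host gene that contains each (vertical), on equal scales; filled symbols passed an adjusted p of 0.05, triangles are listed at 0 in 1 genotype, and rings mark the 4 pairs of Snhg1, Snhg3 and Snhg12. Hosts stay between -0.17 and 0.27 across the whole range of the snoRNAs.

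Other noncoding hosts of snoRNAs held no call. Of their 13 symbols 11 were listed, in 12 rows because Dancr appears under 2 identifiers, and no row passed. Of all genes 0.780% passed, so none in 12 is near that share. The median log2 fold change of the rows was 0.05, beside 0.01 over all genes. Above 0 lay 8 and below 0 lay 4, beside 53.3% above 0 over all genes. An unadjusted p under 0.05 was reached by 2 of the 12 rows (16.7%), against 2.17% of all genes. Rian, the imprinted host of a large snoRNA cluster, averaged 360.4 in controls and 245.6 in knockouts (log2 fold change -0.55 with p = 0.00115 and adjusted p = 0.135 in the authors' deposited table). Snhg7, whose annotated entry is short (chromosome 2, 26637847 to 26637985), averaged 3.89 and 9.13 (log2 fold change 1.22 with p = 0.00291 and adjusted p = 0.297 in the authors' deposited table). These lie on either side of 0, and both are larger in size than any value of Gas5, Snhg1, Snhg3, Snhg4, Snhg5, Snhg8 or Snhg12. Snhg6 (0.63) and Snhg11 (0.77) lie between Rian and Snhg7 in size.

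Among protein-coding genes that contain an annotated snoRNA on the same strand, 229 of 259 were listed. None of the 229 passed, against 0.780% of all genes. The median log2 fold change was 0.02, with 130 above 0 and 99 below, beside 0.01 and 53.3% above 0 over all genes. An unadjusted p under 0.05 was reached by 2 (0.873%), against 2.17% of all genes. These include Snhg11, a member that this annotation counts as protein-coding. The other was Robo2, an axon guidance receptor, with means of 37.8 for controls and 27.1 for knockouts (log2 fold change -0.47 with p = 0.00922 and adjusted p = 0.742 in the authors' deposited table).

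The proteins that bind and assemble snoRNAs gave no call. All 16 genes were found in the table, with 13 above 0 and 3 below, and none had an unadjusted p under 0.05. The median was 0.05, beside a median of 0.01 and 53.3% above 0 over all genes. Of all genes 0.780% passed and 2.17% had an unadjusted p under 0.05, so none in 16 is near those shares. Dkc1, which encodes dyskerin, the pseudouridine synthase of H/ACA particles, averaged 37.6 in controls and 41.7 in knockouts (log2 fold change 0.16 with p = 0.318 in the authors' deposited table). Znhit3, an assembly factor of box C/D particles, averaged 20.5 and 22.5 (log2 fold change 0.15 with p = 0.501 in the authors' deposited table).

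Factors of nonsense-mediated decay, the pathway that removes spliced Gas5 and other host RNAs, gave none either. All 14 were listed, with 13 above 0, 1 below, a median of 0.05 and no unadjusted p under 0.05. The values over all genes were 53.3% above 0 and a median of 0.01. Of all genes 0.780% passed and 2.17% had an unadjusted p under 0.05, so none in 14 is near those shares. Eif4a3 and Magoh, both of the exon junction complex, had the smallest p-values. Eif4a3 averaged 76.5 in controls and 83.0 in knockouts (log2 fold change 0.13 with p = 0.274 in the authors' deposited table), and Magoh 115.0 and 121.1 (log2 fold change 0.09 with p = 0.416).

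The 13 genes of mTOR signalling and growth control had a median of -0.01, with 5 above 0 and 8 below, and none passed. All genes had a median of 0.01, with 53.3% above 0 and 0.780% passing. Of the 13, 1 (7.69%) had an unadjusted p under 0.05, against 2.17% of all genes. Myc, a transcription factor that drives ribosome production, had the smallest p of the list. Myc averaged 12.1 in controls and 6.98 in knockouts (log2 fold change -0.77 with p = 0.0195 and adjusted p = 0.999987 in the authors' deposited table). Eif4ebp1, a translation inhibitor that mTOR switches off, averaged 4.89 and 4.02 (log2 fold change -0.26 with p = 0.576 in the authors' deposited table).

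**Figure D5:**
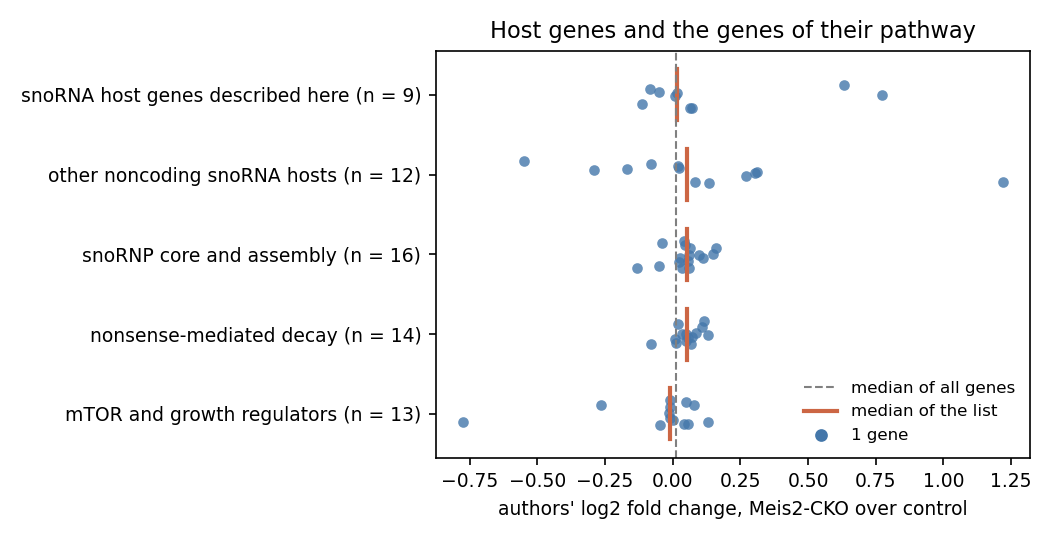
Authors' log2 fold change (Meis2-CKO over control) of single genes (points) in 5 lists, with the list median (solid bar) and the median of all genes (dashed line). Snhg6 and Snhg11, at 0.63 and 0.77, stand apart from the other 7 host genes, and the points farthest from 0 in the other lists are Snhg7 at 1.22, Rian at -0.55 and Myc at -0.77.

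Meis2, the targeted gene, fell from 204.5 in controls to 140.4 in knockouts (log2 fold change -0.53 with adjusted p = 0.00195 in the authors' deposited table). Of 7 eminence and striatal markers, Isl1 (57.9 and 12.5), Ebf1 (21.3 and 3.75) and Foxp1 (40.2 and 16.1) fell. The other 4 had the higher mean in Meis2-CKO and did not pass, namely Dlx1 (393.4 and 495.8), Dlx2 (136.9 and 170.9), Dlx5 (72.3 and 92.1) and Gsx2 (20.9 and 24.2), and the sums over the 7 were 742.9 and 815.2. The summed means of 4 progenitor markers were 356.7 in control and 410.6 in Meis2-CKO, with 4 of 4 above 0, and those of 4 young-neuron markers 1386 and 1234, with 3 of 4 below 0; none of the 8 passed. The sums for 4 pallial markers were 72.1 and 87.7. Those for endothelial markers were 32.2 and 33.2, for microglial markers 15.5 and 16.5, for red blood cell markers 1880 and 1897 and for meningeal markers 3.11 and 1.42, and none of these genes passed. Among all 16913 genes 0.780% passed. No marker was listed at 0 in either genotype. Of 4 Y-linked genes, Kdm5d, Ddx3y and Eif2s3y fell (Eif2s3y from 50.5 to 14.0), while Uty (6.60 and 2.36) and the X-linked Xist (78.0 and 256) did not pass; the labels give no sex. The part of cell composition or sex in the values of Snhg6, Snhg11 and the snoRNAs was not tested.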

How the data were processed

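One deposited table of 16913 genes was analysed, made from RNA-seq of 8 samples, 4 per genotype. It gives an expression signal per gene as a genotype mean taken by the authors, with no unit named, per the file headers. Fold changes on the log2 scale were deposited by the authors, and so was each p-value. Their adjusted p matches a Benjamini-Hochberg adjustment across all genes, and the tool used is not given in the sources here. The submitters' processing notes name FastQC 0.11.5, HISAT2 2.1.0, StringTie 1.3.1, GRCm38.p2 and mm10, with no role for any. A further 8 columns hold library values under names that fit no label. They were not used, so no model across libraries was fitted, no SD is given, and no genes of like pattern are named. Nothing says whether samples came from separate litters, and p-values measure the spread the authors' test used.

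Members were chosen by symbol, and members and lists were chosen with earlier results of these data known. Gene places came from GENCODE M21 (16861 genes matched by Ensembl identifier, 52 not) and start sequences from RefSeq (GRCm38.p6). Named were the 9 members, each listed snoRNA inside them, Meis2, the 7 eminence markers, and from each pathway or host list the 2 genes with the smallest p. Also named were listed neighbours that overlap a member, and Slc3a2, the nearest of the others. The neighbours Prss12 and Trnau1ap, 954 and 738 bases from Snhg8 and Snhg12, were not named. The Y-linked genes, Xist and Snhg17 were named after their values were seen. The letter windows and the tract rule were also set then. Adjustments were tested on simulated data. The software was Python 3.11.15 with pandas 2.3.3, numpy 2.4.6, matplotlib 3.10.9 and scipy 1.17.1.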

Additional observations from a re-analysis of the deposited data

How the results depend on the processing

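No host gene passed in any of 3 other adjustments (over genes with a mean of at least 1, over genes of at least 300 nt, where Snhg4 has no length and was left out, and by Benjamini-Yekutieli). The adjusted p of Snhg6 ranged from 0.628 to 1 over these. The count of 2 snoRNAs past the threshold became 1 under Benjamini-Yekutieli, where Mir1949 had an adjusted p of 0.247, and 1 with hosts placed by GENCODE only, a setting added after the data were seen that leaves out Snhg4. It stayed at 2 with snoRNAs on either strand counted. The log2 fold change of Gas5 changed sign, to -0.00081 with a pseudocount of 1 or of 0.1 on the means and to -0.0019 when centred on the median of all genes; the other 8 host genes and the list medians kept their sign under the scalings tried for them. Dividing the means by the column sums shifts all values by 0.01. No paired analysis was possible because the library columns carry no replicate number, and for the same reason no replicate was left out. Depth is unknown, so no detection limit is given for a gene listed at 0.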
